A study of Zea mays with 9 samples.

Results

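Growth-regulating factors (GRFs) are plant transcription factors, and GIF1 is a coactivator that binds them. The 9 genes described here, 8 GRF genes and GIF1, were taken by their gene identifiers from 39323 genes. All genes were counted in primary root tips, cut 1 cm from the apex, of maize seedlings of the inbred line B73. The rule for the 9 genes used no measured value, but they were listed with earlier results of these data known. Seedlings grew in the dark in vermiculite. Well-watered controls were kept at a water potential of -0.02 MPa, mildly stressed seedlings at -0.3 MPa and severely stressed seedlings at -1.6 MPa, and the root tips were harvested 26 h after transplanting. RNA-seq gave 3 libraries for each treatment, described as biological replicates and each made from the pooled segments of 5 roots. Because whole root tips were sequenced, fewer cells of a type and less RNA per cell cannot be told apart.

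GRF proteins carry a QLQ domain, through which they bind GIF proteins, and a WRC domain, through which they bind DNA. GIF proteins do not bind DNA themselves and connect GRFs to SWI/SNF chromatin remodelling complexes. In Arabidopsis and maize the GRF and GIF partners are known for promoting cell proliferation in growing organs. Most GRF transcripts are targets of the microRNA miR396, which pairs with the stretch that encodes the WRC domain, whereas GIF1 transcripts lack this site.

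The small RNA that ties the GRF genes together is given here in 3 mature forms selected from the small RNA table of the study. The study also reports miR396a,b-3p, which is not shown. Sequences run 5′ to 3′, with the seed (bases 2 to 8) in capitals.
miR396a,b-5p: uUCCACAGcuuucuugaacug
miR396c,d: uUCCACAGgcuuucuugaacug
miR396e,f-5p: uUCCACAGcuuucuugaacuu
All 3 forms share the seed UCCACAG. The form miR396c,d is 22 nt long, and the others are 21 nt long. Levels of small RNAs were not analysed here.

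The libraries held 33401124 to 52072025 reads on transcripts, so that 3 reads, taken as the limit of detection, correspond to 0.0576 to 0.0898 CPM (counts per 1000000 reads). Gene values are the total reads of all transcripts of a gene, as CPM of the library total. Log2 fold changes and their standard errors (SE) come from edgeR's quasi-likelihood test over 26180 genes with at least 10 reads in at least 3 libraries, and a gene with a Benjamini-Hochberg false discovery rate (FDR) below 0.05 is called changed. The fit scales libraries with TMM factors (trimmed mean of M values), which lowered severe stress values relative to the CPM: without these factors the median log2 fold change of all genes, severe stress over well-watered, was 0.12 in place of -0.01. One severe stress library stood apart: the chi-square per degree of freedom over genes was 46.8 and 23.1 between replicate 2 and the other severe stress libraries, and 4.74 to 9.47 for every other pair of replicates. As a check of the tissue, 8 of 9 photosynthetic shoot genes averaged below 5 CPM over the 9 libraries. The root hair gene rth3 averaged 54.2 CPM, and expB8, 1 of 5 expansin genes checked, averaged 81.0 CPM. Of the root hair genes rth1, rth3, rth5 and rth6 only rth3 was checked. The other expansin genes (EXPB1, EXPB9, EXPB10 and EXPB11) averaged 0 to 0.0057 CPM. The exception was ppdk1, encoding pyruvate orthophosphate dikinase, at 78.6 CPM.

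Under severe stress GIF1 was lower, and of the GRF genes GRF12, GRF9 and GRF2 were lower and GRF11 was higher than in well-watered roots. GRF14, GRF3 and GRF8 did not pass the test, and GRF1 was too low to pass the filter on reads. The 8 tested genes thus gave 5 calls, 1 higher and 4 lower. Of all 26180 genes, 55.3% were called in this comparison, 27.6% higher and 27.7% lower, and the share of 5 in 8 is near that background. The median log2 fold change was -0.21 over the 8 tested genes and -0.01 over all tested genes. In CPM, 5 of the 9 genes, GRF1 included, had severe stress libraries that did not overlap the well-watered libraries, 2 higher and 3 lower. The background was 62.3% (39.5% higher, 22.8% lower) of the 26180 tested genes, which do not include GRF1. Under mild stress none of the 8 genes was called, with 1 of them (GRF14) below an unadjusted p of 0.05 and called by DESeq2, and the background was 8.85% (4.51% higher, 4.34% lower).

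**Figure D1:**
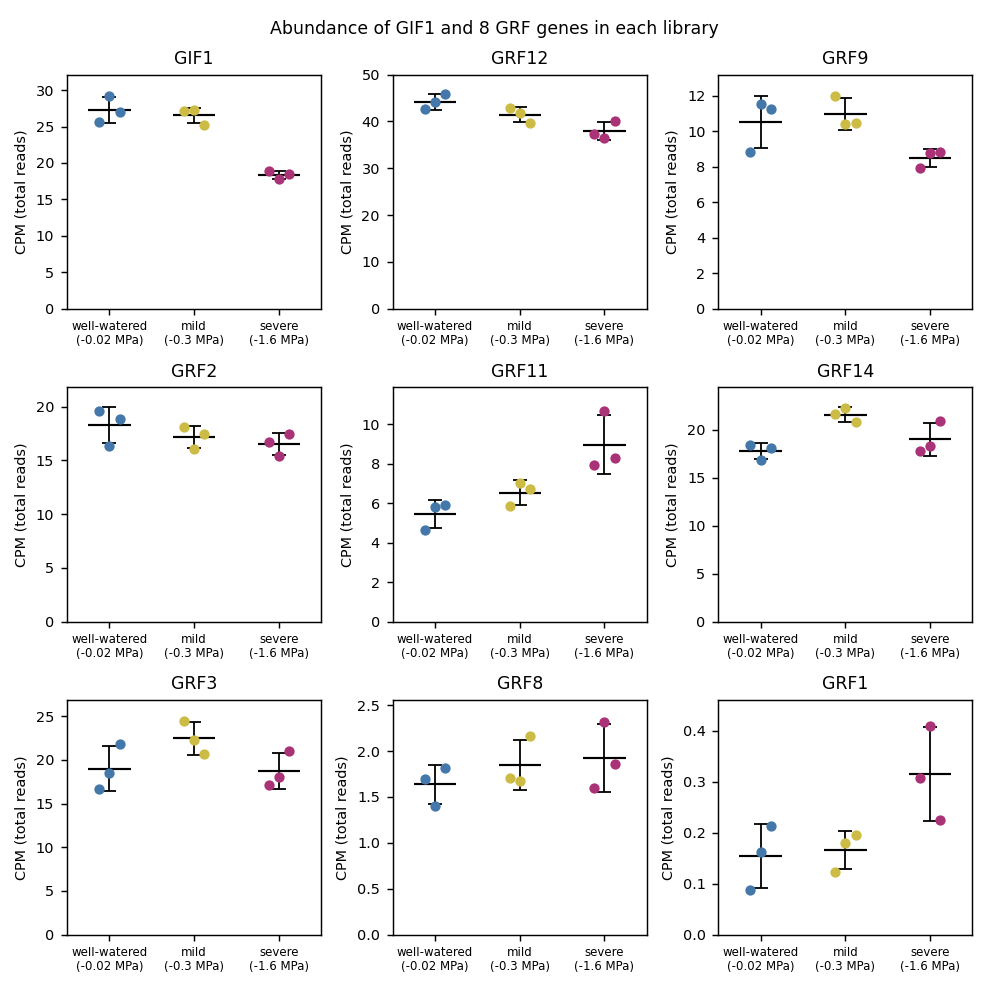
Abundance of GIF1 and the 8 GRF genes in each of the 9 libraries, as CPM of total reads, by water potential. Points are libraries, horizontal bars are means and error bars are SDs (n = 3). The GIF1 libraries of severely stressed roots sit between 17.8 and 18.9 CPM, all below the others, and those of GRF11 sit above the others.

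GIF1 (GRMZM2G180246, chromosome 1, 273393236 to 273396891, minus strand, RefGen_v3) is the coactivator of the group. It had 18.9, 17.8 and 18.5 CPM in the 3 severely stressed libraries, against 25.6, 29.2 and 26.9 CPM in the well-watered libraries. In mildly stressed roots it had 27.1, 27.2 and 25.3 CPM. Every severe stress library lay below every other library, while mild stress and well-watered libraries overlapped. The log2 fold change was -0.70 under severe stress relative to well-watered roots (SE 0.0738, edgeR FDR 1.21e-05), a level 0.617 times that of the control. Only 6.03% of all tested genes had a lower log2 fold change in this comparison. Under mild stress it was -0.07 (SE 0.073, FDR 0.672), and between severe and mild stress it was -0.63 (SE 0.0739, FDR 4.43e-05).

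Only 4.29% of the GIF1 reads were unique to a transcript. With these unique reads, 381 over all libraries, the log2 fold change under severe stress was -0.59 with an FDR of 0.0508, just outside the threshold, and against mild stress the FDR was 0.0419. The first annotated transcript, GRMZM2G180246_T01, was assigned 94.4% ± 3.76 of the reads under severe stress and 96.6% ± 1.71 in well-watered roots (SD, n = 3 each). Most of these reads were not unique, and how such reads were assigned is not known, so the share of each transcript is uncertain. The log2 fold change of GRMZM2G180246_T01 in total reads was -0.70 (SE 0.0923, edgeR FDR 0.000495). It uses nearly the same reads as the value of the gene. The second, GRMZM2G180246_T02, averaged 1.01 CPM under severe stress and 0.917 CPM in well-watered roots, with a log2 fold change of 0.04 (SE 0.475, FDR 0.963).

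**Figure D2:**
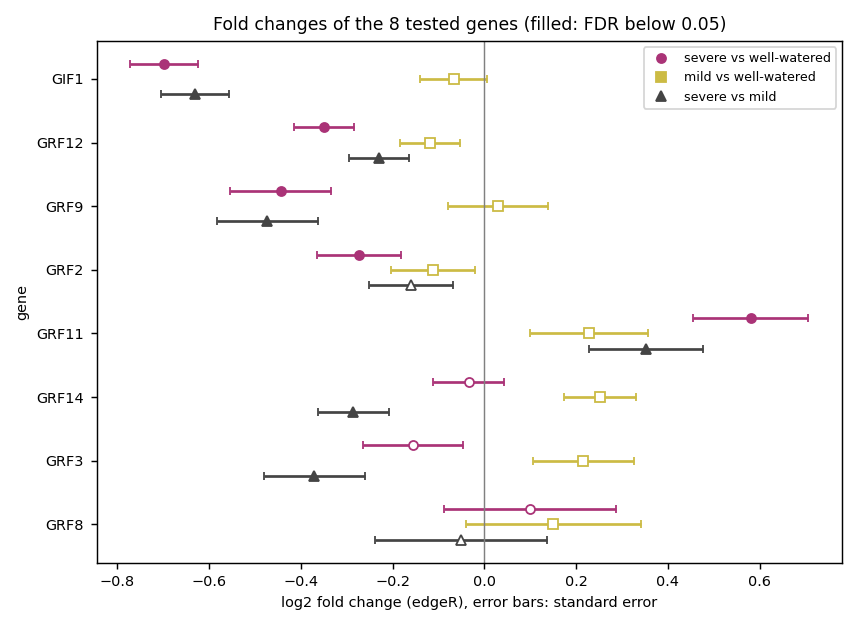
Log2 fold changes of the 8 tested genes in 3 comparisons, with standard errors, from the edgeR fit of all genes. Filled symbols have an FDR below 0.05. GIF1 is at -0.70 and GRF11 at 0.58 under severe stress relative to well-watered roots, and no symbol of the mild stress comparison is filled.

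The transcription factor gene GRF12 (GRMZM2G119359, chromosome 9, 25722859 to 25725873, plus strand) was the most abundant of the GRF genes. It had 37.3, 36.4 and 40.1 CPM in severely stressed roots, against 42.6, 44.1 and 45.8 CPM in well-watered roots, and 42.8, 41.8 and 39.7 CPM in mildly stressed roots. The severe stress libraries lay below the well-watered ones without overlap, and one of them overlapped the mild stress range. The log2 fold change was -0.35 under severe stress (SE 0.0652, edgeR FDR 0.000756), -0.12 under mild stress (SE 0.0653, FDR 0.333) and -0.23 for severe against mild stress (SE 0.0653, FDR 0.0117). The last GRF12 call was lost without TMM factors (FDR 0.0881), with a replicate block (FDR 0.0639) and without mild stress replicate 1 (FDR 0.0506). Of the GRF12 reads 74.9% were unique, and the transcript GRMZM2G119359_T01 held 97.9% of all its reads. The severe stress difference of this transcript was -0.36 in unique reads (SE 0.0795, FDR 0.000936).

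GRF9 (GRMZM5G893117, chromosome 5, 211773221 to 211774543, minus strand) has 1 annotated transcript, and 100% of its 3720 reads were unique. It had 7.93, 8.77 and 8.82 CPM in severely stressed roots, against 8.84, 11.5 and 11.3 CPM in well-watered roots, and 12.01, 10.4 and 10.5 CPM in mildly stressed roots. The severe stress libraries did not overlap those of either other treatment, although the gap to the lowest well-watered library was 8.82 against 8.84 CPM. The log2 fold change was -0.44 under severe stress (SE 0.11, edgeR FDR 0.00468), 0.03 under mild stress (SE 0.109, FDR 0.922) and -0.47 for severe against mild stress (SE 0.11, FDR 0.00381).

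GRF2 (GRMZM2G099862, chromosome 2, 225828392 to 225831803, minus strand) had 16.7, 15.4 and 17.4 CPM in severely stressed roots, against 19.5, 16.3 and 18.9 CPM in well-watered roots. It had 18.1, 16.0 and 17.4 CPM in mildly stressed roots. All treatments overlapped in CPM. The log2 fold change under severe stress was -0.27 (SE 0.0911, edgeR FDR 0.0233), and the call was lost in 6 alternatives: unique reads (FDR 0.115), no TMM factors (FDR 0.174), a fit of only the compared treatments (FDR 0.053), and without well-watered replicate 1 (FDR 0.094), well-watered replicate 3 (FDR 0.0739) or severe stress replicate 2 (FDR 0.0732). The values for mild stress relative to well-watered roots, -0.11 (FDR 0.548), and for severe against mild stress, -0.16 (FDR 0.166), did not pass the test. The transcript GRMZM2G099862_T01 held 88.5% of the reads of the gene.

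GRF11 (GRMZM2G067743, chromosome 9, 9818084 to 9819919, minus strand) was the only tested member called higher under severe stress. It had 7.91, 10.7 and 8.29 CPM in severely stressed roots, against 4.64, 5.81 and 5.91 CPM in well-watered roots, and 5.86, 7.04 and 6.72 CPM in mildly stressed roots. Every severe stress library lay above every other library, with replicate 2 the highest. The log2 fold change was 0.58 under severe stress (SE 0.126, edgeR FDR 0.00213), 0.23 under mild stress (SE 0.129, FDR 0.352) and 0.35 for severe against mild stress (SE 0.125, FDR 0.0345). Without severe stress replicate 2 the difference between severe and mild stress was 0.23 (FDR 0.129), and the call against well-watered roots remained. The call against mild stress was also lost without mild stress replicate 1 (FDR 0.126), without mild stress replicate 4 (FDR 0.0691) and with a replicate block (FDR 0.0832).

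Of the GRF11 reads 6.23% were unique, 166 over all libraries, and with these the values were 0.93 relative to well-watered roots (FDR 0.0622) and 0.42 relative to mild stress (FDR 0.391). Reads of GRF11 were spread over 3 annotated transcripts. GRMZM2G067743_T01 had 1.94, 2.92 and 1.32 CPM under severe stress, against 0.496, 0.645 and 0.851 CPM in well-watered roots, and 0.198, 0.749 and 1.44 CPM under mild stress. The severe stress and well-watered libraries did not overlap, and the mild stress libraries spanned a range wider than that of the well-watered ones. In total reads its log2 fold change under severe stress was 1.52 (SE 0.567, edgeR FDR 0.0732), and in unique reads, 29 over all libraries, it was 2.33 (SE 0.861, FDR 0.0455). DESeq2 called this transcript in total but not in unique reads. It took 22.6% ± 5.92 of the gene's reads under severe stress and 12.1% ± 2.03 in well-watered roots, and GRMZM2G067743_T03 took 73.5% ± 5.6 under severe stress and 81.0% ± 4.8 in well-watered roots (SD, n = 3 each).

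GRF14 (GRMZM2G098594, chromosome 6, 60352538 to 60355691, minus strand) and GRF3 (GRMZM2G105335, chromosome 4, 177152123 to 177154056, plus strand) had their highest means under mild stress. GRF14 had 21.6, 22.3 and 20.8 CPM in mildly stressed roots, against 18.4, 16.8 and 18.1 CPM in well-watered roots, and 17.8, 18.3 and 20.9 CPM in severely stressed roots. The mild stress libraries lay above the well-watered ones without overlap, beside a background of 31.6% of genes (18.0% higher, 13.6% lower). The log2 fold change under mild stress relative to well-watered roots was 0.25 (SE 0.0779, edgeR FDR 0.0714), not called, and 5 alternatives did call it, among them DESeq2 (FDR 0.0482), the fit without TMM factors (FDR 0.0436) and the fit of only the compared treatments (FDR 0.0194). Severe against mild stress was -0.29 (SE 0.0774, FDR 0.00911), a call that was lost without TMM factors (FDR 0.0636). Severe stress relative to well-watered roots was -0.03 (SE 0.0778, FDR 0.731).

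GRF3 had 24.4, 22.3 and 20.7 CPM in mildly stressed roots, against 16.7, 18.5 and 21.8 CPM in well-watered roots, and 17.1, 18.0 and 21.1 CPM in severely stressed roots. The treatments overlapped. The edgeR log2 fold change of GRF3 relative to well-watered roots was 0.22 in mildly stressed roots (SE 0.11, FDR 0.292) and -0.16 in severely stressed roots (SE 0.11, FDR 0.252), and it was -0.37 for severe against mild stress (SE 0.11, FDR 0.0146). The last call was lost with unique reads (FDR 0.544), without TMM factors (FDR 0.0627) and without mild stress replicate 1 (FDR 0.0706).

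The annotated transcripts of GRF14 and GRF3 could hardly be told apart, since only 1.03% and 2.72% of their reads were unique. GRF3 has a pair of transcripts of 1711 and 1702 bases, and GRMZM2G105335_T01 took 35.8%, 85.7% and 39.5% of the reads in the severe stress libraries, against 44.7%, 41.5% and 64.3% in the well-watered libraries. GRF14 has 8 transcripts, and GRMZM2G098594_T05 took 32.6% of the reads in severe stress replicate 2 but 4.16% to 9.35% in each of the other 8 libraries. The GRMZM2G105335_T01 share thus ranged more widely among severe stress replicates than between the means of severe stress (53.7%) and well-watered roots (50.2%). No transcript of GRF14 or GRF3 was called in any of the 3 comparisons, in total or in unique reads, by edgeR or DESeq2.

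**Figure D3:**
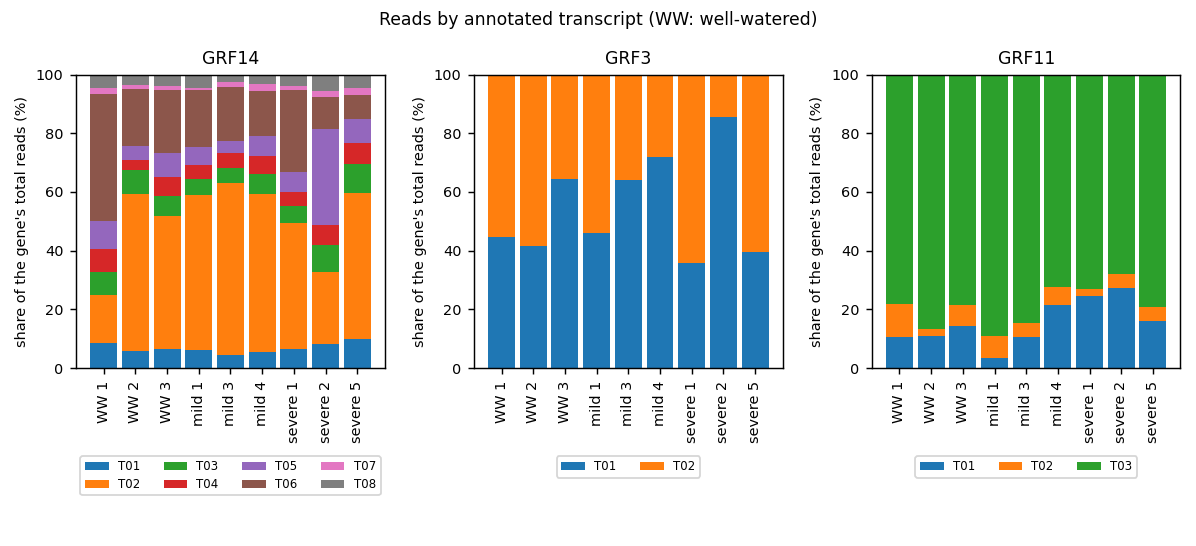
Share of the total reads of GRF14, GRF3 and GRF11 assigned to each annotated transcript, in each of the 9 libraries (WW, well-watered). GRF14_T05 takes 32.6% in severe stress replicate 2, and GRF3_T01 ranges from 35.8% to 85.7% among the severe stress libraries.

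GRF8 (GRMZM2G033612, chromosome 5, 13818620 to 13821440, minus strand) and GRF1 (GRMZM2G034876, chromosome 5, 200344613 to 200348143, minus strand) were the least abundant of the group. GRF8 had 1.59, 2.32 and 1.86 CPM in severely stressed roots, against 1.69, 1.41 and 1.82 CPM in well-watered roots, and 1.70, 1.68 and 2.17 CPM in mildly stressed roots. All treatments overlapped, and the FDR was 0.676 to 0.842 in the 3 comparisons. GRF1 had 16, 21 and 8 reads under severe stress, against 3, 7 and 9 reads in well-watered roots, and 5, 6 and 8 reads under mild stress. In CPM its severe stress libraries lay above the others, at 0.226 to 0.409 CPM, against 0.0875 to 0.213 CPM in well-watered roots. When all 35475 genes with any read were tested, its log2 fold change under severe stress was 0.88 (SE 0.474, edgeR FDR 0.161), and it was not called.

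Between severe and mild stress 6 of the 8 tested genes were called, 1 higher and 5 lower, beside a background of 50.0% of all genes (26.0% higher, 24.0% lower). In CPM 4 of the 9 genes, GRF1 included, did not overlap, 2 higher and 2 lower. The background was 57.2% (36.7% higher, 20.5% lower) of the tested genes, which do not include GRF1. The median log2 fold change was -0.26 over the 8 genes and 0.01 over all tested genes. GIF1, GRF9, GRF12, GRF3 and GRF14 were lower and GRF11 was higher under severe stress. Both comparisons of severe stress use the same severe stress libraries. Without severe stress replicate 2 there were 5 calls, 0 higher and 5 lower, and relative to well-watered roots 4 calls, 1 higher and 3 lower.

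At the level of single transcripts, 24 of the 27 annotated transcripts of the 9 genes were among the 46599 transcripts listed by the authors. In total reads 3 of the 24 were called under severe stress relative to well-watered roots, all lower, namely the first transcripts of GIF1 and GRF12 and the transcript of GRF9, and 29.5% of all transcripts were called. Under mild stress 0 were called by edgeR and 0 by DESeq2, with 1 below an unadjusted p of 0.05 in the edgeR test, beside 2.43% of all transcripts. For severe against mild stress 2 were called, both lower, beside 24.2%. In unique reads 19 of these transcripts were tested, and 3 were called for severe stress relative to well-watered roots (background 28.5%) and 3 for severe against mild stress (24.4%). Under mild stress edgeR and DESeq2 each called 0 in unique reads, with 0 below an unadjusted p of 0.05, beside 4.60%.

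To compare genes with each other, CPM values were also divided by transcript length in kilobases (RPKM). The mean RPKM gave the same order of the GRF genes in all 3 treatments: GRF12, GRF14, GRF3, GRF2, GRF9, GRF11, GRF8 and GRF1. In well-watered roots the means ran over 25.9, 12.1, 11.1, 10.4, 8.62, 3.35, 1.19 and 0.0915 RPKM in this order. Within these well-watered libraries the ranges of neighbours overlapped from GRF14 to GRF9 and were apart elsewhere. The distance between GRF9 and GRF11 was smaller under severe stress, where GRF9 averaged 6.96 ± 0.408 RPKM and GRF11 5.46 ± 0.899 RPKM, than in well-watered roots, where they averaged 8.62 ± 1.21 and 3.35 ± 0.432 RPKM (SD, n = 3 each). With their highest and lowest libraries at 6.49 RPKM each, GRF11 and GRF9 met under severe stress.

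The summed level of the 8 GRF genes overlapped between treatments. It was 66.0, 69.4 and 73.5 RPKM in severely stressed roots, against 70.2, 71.3 and 76.8 RPKM in well-watered roots, and 78.6, 75.2 and 73.4 RPKM in mildly stressed roots. GIF1 alone was at 13.8, 13.0 and 13.6 RPKM under severe stress, against 18.8, 21.4 and 19.8 RPKM in well-watered roots. The ratio of GIF1 to the GRF sum was 0.209, 0.187 and 0.185 under severe stress, against 0.267, 0.300 and 0.257 in well-watered roots, and 0.253, 0.265 and 0.252 under mild stress. All severe stress ratios lay below all others. This ratio does not depend on library scaling, and as a score over the members it was not tested. The sum does not cover the whole family. It leaves out GRF4 and GRF10, which averaged 9.69 and 12.5 RPKM over the 9 libraries, and less abundant GRF genes described below. The coactivator GIF2, at 15.7 RPKM, is also outside the ratio. GRF12 made up 30.7% to 33.1% of the GRF sum under severe stress and 35.1% to 36.1% in well-watered roots, and under mild stress its share was 31.7% to 32.3%.

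**Figure D4:**
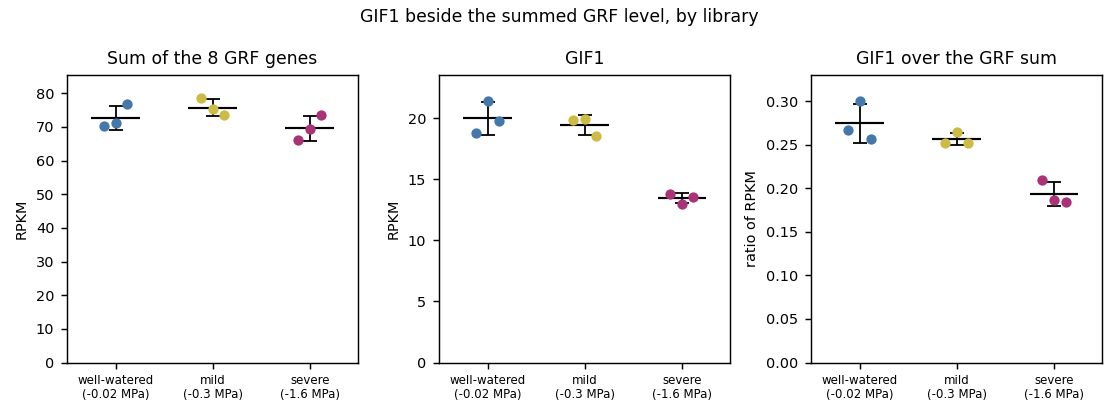
Summed RPKM of the 8 member GRF genes, RPKM of GIF1 and the ratio of GIF1 to the sum, in each of the 9 libraries by water potential. GRF4, GRF10, other GRF genes and GIF2 are not included. Points are libraries, horizontal bars means and error bars SDs (n = 3). The GRF sums overlap among treatments, whereas the severe stress ratios (0.185 to 0.209) lie below all others.

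Further GRF genes that the study's degradome sequencing listed as miR396 targets are GRF13, GRF6, GRF7 and GRF5. Of the 3 that passed the filter on reads, GRF7 was called lower under severe stress, beside a background of 55.3% of all tested genes called (27.7% lower). It had 0.787, 0.429 and 0.423 CPM in severely stressed roots, against 1.17, 1.22 and 1.09 CPM in well-watered roots, with a log2 fold change of -1.19 (SE 0.272, edgeR FDR 0.00296). The libraries did not overlap, beside a background of 62.3% of tested genes (22.8% lower), and none of the GRF7 reads was unique to a transcript. GRF13 was at -0.20 (FDR 0.252) and GRF6 at 0.14 (FDR 0.686). GRF5 was below the limit of detection of 3 reads in each severe stress library, with 1 to 2 reads, against 4 to 6 reads in each well-watered library. In the test of all 35475 genes with any read it was called lower under severe stress, with a log2 fold change of -1.85 (SE 0.71, edgeR FDR 0.0476). That call rests on these few reads.

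The gene table names 5 more genes as GRF or GIF, of which 1 was called under severe stress relative to well-watered roots, beside a background of 55.3% of all tested genes. GRF4 had a log2 fold change of 0.13 (edgeR FDR 0.13) and GRF10 of 0.09 (FDR 0.356) under severe stress relative to well-watered roots, and without TMM factors both were called higher (FDR 0.00803 and 0.0182). The coactivator GIF2 had 36.2, 40.7 and 33.5 CPM in severely stressed roots, against 33.0, 33.2 and 32.5 CPM in well-watered roots, and a log2 fold change of 0.03 (SE 0.0636, FDR 0.689). In its unique reads this was -0.21, called lower (FDR 0.0363). Against mild stress GIF2 was called higher in total reads at 0.16 (FDR 0.0494), a call lost in 12 of 17 alternatives, and unique reads gave -0.13. GRMZM2G124566, with the synonym GRF9, was at -0.16 (FDR 0.368), and GRMZM2G178261, with the synonym GRF1, was called lower at -0.40 (FDR 0.000183). Synonyms of this table are shared between genes, and whether GRMZM2G178261 encodes a growth-regulating factor was not tested.

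The degradome table also lists 7 miR396 targets outside the GRF family. Under severe stress relative to well-watered roots 2 of them were called higher and 3 lower, and under mild stress 2 were called lower, beside the backgrounds given above. GRMZM2G029323 moved the most. It had 42.9, 78.3 and 54.3 CPM in severely stressed roots, against 33.4, 32.8 and 33.2 CPM in well-watered roots, and 24.4, 22.5 and 22.9 CPM in mildly stressed roots. None of the treatments overlapped. For this gene edgeR gave a log2 fold change of 0.68 in severely stressed roots (SE 0.147, edgeR FDR 0.00202), -0.54 in mildly stressed roots (SE 0.151, FDR 0.0476) and 1.22 for severe against mild stress (SE 0.15, FDR 6.09e-05). The mild stress call was lost in 11 of 17 alternatives, among them the fits without any one of the well-watered or mild stress libraries. The other mild stress call, GRMZM2G003354 at -0.24 (edgeR FDR 0.0331), was lost in 8 of 17, namely in unique reads (FDR 0.64), with a replicate block (FDR 0.159) and without any one of the well-watered or mild stress libraries (FDR 0.0818 to 0.126). Under severe stress relative to well-watered roots GRMZM2G451604 (HP3) was also called higher, at 0.60 (edgeR FDR 0.00885). GRMZM2G003354, GRMZM2G078933 and GRMZM2G094388 were called lower at -0.43 to -0.49 (FDR 0.000111 to 0.000809). GRMZM2G035077, at 0.18 (FDR 0.12), and GRMZM2G146862, at -0.14 (FDR 0.253), did not pass the test.

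A set of 5 genes of DNA replication and the cell cycle was matched by symbol. All 5 fell under severe stress relative to well-watered roots, beside a background of 27.7% of genes called lower. The list was chosen with earlier results of these data known, and cyc1 was added after its values were seen, so this count is a description. Under mild stress edgeR called 0 of them. MCM7, at 0.21 (FDR 0.0733), and MCM6, at 0.15 (FDR 0.172), were the 2 below an unadjusted p of 0.05. The mild stress libraries of both lay above the well-watered ones without overlap, beside a background of 18.0% of genes. MCM7 was called higher under mild stress in 6 of 17 alternatives, among them DESeq2 (FDR 0.03) and the edgeR fit of only the compared treatments (FDR 0.012). The 5 genes are pcna1 and pcna2, which encode the sliding clamp of DNA polymerase, MCM6 and MCM7, subunits of the replicative helicase, and cyc1, an A-type cyclin. The gene pcna1 had 50.1, 45.6 and 52.3 CPM in severely stressed roots, against 73.2, 77.4 and 79.0 CPM in well-watered roots, and 73.7, 70.5 and 73.5 CPM in mildly stressed roots. Severe stress libraries lay below all others. The log2 fold changes under severe stress were -0.76 for pcna1 (edgeR FDR 4.59e-06), -0.47 for MCM6 (FDR 4.5e-05), -0.41 for pcna2 (FDR 0.000383), -0.38 for MCM7 (FDR 0.000397) and -0.31 for cyc1 (FDR 0.00536), beside -0.70 for GIF1. The call of cyc1 was lost in unique reads (FDR 0.104). The median of the 5 was -0.41, beside -0.01 for all tested genes. The part of dividing cells in the lower level of GIF1 was not tested.

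**Figure D5:**
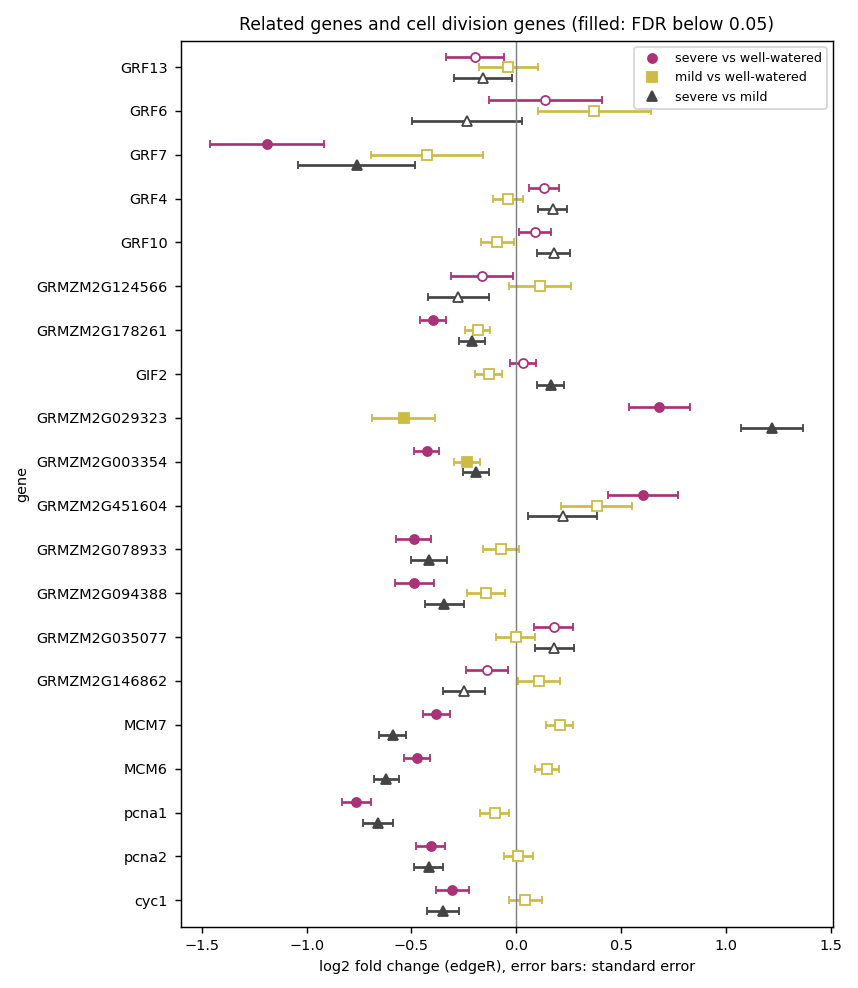
Log2 fold changes with standard errors of other GRF and GIF genes, other miR396 targets and cell division genes in 3 comparisons. Filled symbols have an FDR below 0.05. GRF7 (-1.19) is the lowest under severe stress relative to well-watered roots and GRMZM2G029323 (0.68) the highest, and all 5 cell division genes lie at -0.31 to -0.76.

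Among 10016 annotated genes with a mean of at least 10 CPM, the pattern over the 9 libraries most like that of GIF1 was found for GRMZM2G076584, with a root mean square difference of 0.0673 in standardized log2 CPM. It averaged 10.4 CPM under severe stress, against 18.3 CPM in well-watered roots. GRMZM2G086637 (0.0991) and GRMZM2G070061 (vip3, 0.106) followed. For GRF12 the nearest were GRMZM2G080274 (hon101, 0.193), GRMZM2G178741 (0.23) and GRMZM2G004878 (0.237). All values share the same 9 libraries, and the distances are a description.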

How the data were processed

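Total RNA of 9 pools of root tips was made into polyA-selected libraries and sequenced on an Illumina NextSeq 500. The authors trimmed the reads and mapped them to the B73 RefGen_v3 gene models with CLC Workbench. They deposited, without normalization, total and unique read counts for 63074 transcripts of 39323 genes, with RPKM and TPM values per transcript that were not used. The deposited CPM tables cover 46599 transcripts and equal the total counts over their library sum to within 5e-07 CPM. How reads matching several transcripts were assigned is not given in the sources used here. Unique reads were 48.1% to 48.7% of a library.

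Total reads were summed per gene, and reads per library total gave CPM. RPKM here are reads over transcript length, summed over the transcripts of a gene. Counts were tested in R 4.3.3 with edgeR 4.0.16 (TMM, glmQLFit, glmQLFTest; treatment as the only term; 9 libraries in one fit; Benjamini-Hochberg over all features). An SE is the absolute log2 fold change over the square root of F. Severe stress, mild stress and their difference were compared, also per transcript. Replicates of a treatment came from separate pools of roots. A batch of preparation or sequencing was not tested. Alternatives were unique reads, other filters, DESeq2 1.42.0, no TMM factors, 2 treatments only, a replicate block, FDR below 0.01, the other glmQLFit method and leaving out each library. The test was also run on simulated counts with fewer changed genes than in these data and with changes larger than those of the members. That run cannot check calls of small changes or the scaling.

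The rule for naming took all 9 genes and their listed transcripts, every GRF, GIF and miR396 target gene of the lists, cell division genes by count with 4 examples of the highest CPM, and the 3 genes nearest to GIF1 and to the most abundant GRF. Transcripts that were not called are mostly given by count, photosynthetic genes by count and ppdk1, and cyc1 was added after its values were seen. The rule for the members uses gene identifiers and no measured value, but the lists, the members among them, were chosen with earlier results of these data known. Gene names come from a RefSeq table of assembly Zm-B73-REFERENCE-NAM-5.0, which matched 18844 gene IDs and gives symbols but no descriptions, so lists were matched by symbol. Coordinates are those of the files. Tables and plots used Python 3.11.15, pandas 2.3.3 and matplotlib 3.10.9.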

Additional observations from a re-analysis of the deposited data

How the results depend on the processing

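Leaving out each library gave 12654 to 14714 changed genes for severe stress relative to well-watered roots (14490 with all libraries), 1397 to 3637 for mild stress (2317) and 11160 to 13507 for severe against mild stress (13085). Among the member genes these fits gave 4 to 5, 0 to 1 and 3 to 6 calls in the same order (5, 0 and 6 with all libraries). For mild stress the highest count, 3637, came without severe stress replicate 2, and counts of 1417, 1397 and 1426 came without well-watered replicate 2, mild stress replicate 3 and mild stress replicate 4. The 1 member call under mild stress (GRF14) came without severe stress replicate 2 or 5, and the 3 member calls for severe against mild stress came without mild stress replicate 1. Member transcripts called for severe against mild stress were 1 to 2 in total reads (2) and 1 to 3 in unique reads (3). Under severe stress they were 2 to 4 in each kind of reads (3). For severe against mild stress the count in total reads was 1 without severe stress replicates 1, 2 or 5 or mild stress replicate 1. In unique reads it was 1 without well-watered replicate 1, mild stress replicates 1 or 4, or severe stress replicate 2.

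Deviations of same-numbered libraries from their treatment means correlated at 0.0131 to 0.0699 (5 pairs), and others at -0.112 to 0.1. These values do not settle whether replicate numbers pair the libraries, since deviations within a treatment depend on each other. Replicate numbers 4 and 5 each occur in only 1 library. A replicate block therefore fits mild stress replicate 4 and severe stress replicate 5 exactly and leaves fewer libraries to estimate the spread. With the replicate block the counts of changed genes were 1386 for mild stress and 6748 for severe against mild stress, and member transcripts called for severe against mild stress were 0 in total reads and 1 in unique reads. Fitting only the treatments compared gave 3836 changed genes under mild stress and 1 member call, and an FDR below 0.01 gave 1141 changed genes under mild stress and 3 member calls for severe against mild stress. Unique reads gave 2 member calls under severe stress and 3 for severe against mild stress, with 7 member genes tested. DESeq2 gave 1 member call under mild stress and 6 member transcripts under severe stress. Without TMM factors 9222 genes were higher and 4941 lower under severe stress, against 7226 and 7264 with them, and for severe against mild stress 8465 were higher and 4521 lower, against 6806 and 6279. The median of all genes moved by 0.13 and 0.10 (log2). This scaling gave 1 member call under mild stress, 3 for severe against mild stress, and 1 member transcript in total and 1 in unique reads for severe against mild stress. The cause of these differences was not tested.

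Directions turned, at values not called except for GIF2, as follows (log2). Under severe stress relative to well-watered roots, unique reads gave -0.059 for GRF8, 0.048 for GRF3, 0.0041 for GRF13 and -0.21 for GIF2 (edgeR FDR 0.0363), and the fit without severe stress replicate 2 gave -0.036 for GRF8, 0.014 for GRF14, -0.0044 for GRF6 and -0.019 for GIF2. GRF14 was at 0.00014 with a filter of 1 CPM and at 0.096 without TMM factors, and GRF6 at -0.0078 without well-watered replicate 3. For severe against mild stress, GRF8 was at 0.056 without TMM factors, 0.11 with the block, 0.081 without mild stress replicate 4 and 0.056 without severe stress replicate 1, and GIF2 at -0.13 in unique reads. Under mild stress relative to well-watered roots, unique reads gave 0.045 for GIF1 and 0.15 for GRF13. GRF9 was at -0.078 and GRF13 at 0.037 without well-watered replicate 1, and GRF9 at -0.052 without mild stress replicate 1. GRMZM2G035077 was at 0.0041 with a filter of 1 CPM, 0.013 with DESeq2, 0.024 without TMM factors, 0.084 with the block, 0.023 and 0.055 without well-watered replicates 2 and 3, and 0.072 without mild stress replicate 4. The gene pcna2 was at -0.043 with the block, -0.0088 without well-watered replicate 2 and -0.0015 without mild stress replicate 1, cyc1 at -0.00082 without well-watered replicate 1, and GRF4 at 0.0064 with the block. Over all fits that left out a library, GRF8 ranged from -0.036 to 0.21 under severe stress relative to well-watered roots and from -0.19 to 0.081 for severe against mild stress, GRF6 from -0.0078 to 0.32 and GIF2 from -0.019 to 0.088 under severe stress, and GRF13 from -0.11 to 0.037 and GRMZM2G035077 from -0.083 to 0.072 under mild stress.

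Of all results and alternatives compared, 1450 kept their direction and side of the threshold, stayed within 1.5 times a count, or moved by less than 1 SD. Of the others, 76 lost a call, 24 gained one, 33 turned direction and 34 moved further than these limits. With 3 libraries per treatment the spread is estimated from few values. GRF1 and GRF5, near or below the detection limit, were tested only without the filter on reads. Shared reads limit what the counts say about single transcripts of GIF1, GRF3, GRF11 and GRF14.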
